A study of Homo sapiens with 12 samples.

Results

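The genes described here are 8 members of the ID and SMAD response circuit: ID1, ID2, ID3 and ID4, which encode the inhibitors of DNA binding, the receptor-activated transcription factor SMAD3, and the feedback genes SMAD6, SMAD7 and SKIL. They were chosen by an exact match of their symbols to the gene names in the deposited variance-stabilized table, and 8 of 8 were found among 58288 gene identifiers. RNA was sequenced from MV3, an established human melanoma line that the labels trace to a lymph node metastasis. All cells were grown with 10% serum and then spent 3 h in RPMI with 1% serum. They next spent 24 h in 1 of 4 media. Ctrl was fresh RPMI that no cell had conditioned, and the others were RPMI conditioned by macrophages derived from THP-1 monocytes, a human leukaemia line. Those macrophages had been differentiated with PMA, a phorbol ester (M0), and for the other media polarized further with LPS and IFNγ (M1) or with IL4 and IL13 (M2). Each medium had 3 libraries, 12 in all, and every cell came from the same melanoma line. Whether the 3 replicates were separate cultures is not stated in the labels, and the p-values then reflect spread that may be technical. The 3 comparisons with Ctrl share the same Ctrl libraries and include whatever conditioning by macrophages does in general; carry-over of the agents in the media was not measured. The design text names the differences among M0, M1 and M2 as the main question.

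As background, BMP ligands act through type I and type II receptors to phosphorylate SMAD1, SMAD5 and SMAD9, while TGF-beta and activin ligands act through SMAD2 and SMAD3, and both branches share SMAD4. ID genes are classical direct targets of the BMP branch. ID proteins have a helix-loop-helix domain without a DNA-binding region, so they pair with E proteins and hold them off DNA, and they are associated with proliferation and a less differentiated state, also in melanoma. SMAD6 and SMAD7 are inhibitory SMADs that bind activated receptors, SMAD6 mainly in the BMP branch and SMAD7 in both. SKIL encodes SnoN, a co-repressor that binds SMAD complexes at their target genes, and SMAD7 and SKIL are themselves induced by TGF-beta.

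Promoter sequence was read from the RefSeq table for build GRCh38.p14, which held all 8 members. The 250 bases before each RefSeq start were searched on both strands for GGCGCC (a GC-rich SMAD element of BMP targets), GTCTAGAC (a palindromic SMAD element), CAGACA (a SMAD element, whose reverse complement shares bases with the palindrome) and TGACGTCA (a cAMP response element). SMAD6, SKIL and ID1 are printed because they stand for the different behaviours described in the next paragraphs and because their RefSeq and GENCODE starts lie within 37 bases of each other. Capitals mark the motif matches, and SMAD6 has the palindrome from base 12 to base 5 before its RefSeq start, so that it spans the GENCODE start, which lies 8 bases upstream of the RefSeq one. SKIL has GGCGCC 190 to 185 bases and TGACGTCA 54 to 47 bases before its RefSeq start, and ID1 has none of the 4 motifs in its 250 bases. Sequence farther upstream was not searched for any member. The sequences run 5′ to 3′ on the plus strand, that of SKIL is shortened to end before the GENCODE start, and those of SMAD6 and ID1 run 8 and 6 bases past it.
SMAD6, chr15:66701986-66702235: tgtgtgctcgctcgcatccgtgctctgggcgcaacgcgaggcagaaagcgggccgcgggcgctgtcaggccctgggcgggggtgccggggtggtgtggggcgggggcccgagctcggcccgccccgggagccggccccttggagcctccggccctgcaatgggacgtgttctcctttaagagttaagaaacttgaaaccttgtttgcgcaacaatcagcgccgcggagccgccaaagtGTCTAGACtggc
SKIL, chr3:170357465-170357677: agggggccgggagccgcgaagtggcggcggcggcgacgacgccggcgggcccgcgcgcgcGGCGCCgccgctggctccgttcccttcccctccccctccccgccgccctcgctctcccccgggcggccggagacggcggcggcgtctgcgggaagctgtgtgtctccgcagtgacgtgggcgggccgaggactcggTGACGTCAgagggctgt
ID1, chr20:31605039-31605288: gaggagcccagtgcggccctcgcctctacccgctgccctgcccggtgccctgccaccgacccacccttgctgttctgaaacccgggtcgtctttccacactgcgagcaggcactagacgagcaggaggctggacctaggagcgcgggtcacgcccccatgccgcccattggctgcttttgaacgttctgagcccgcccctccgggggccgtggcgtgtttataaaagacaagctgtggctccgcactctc

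Among all 35116 promoters in the table, 0.182% held GTCTAGAC, 1.65% held TGACGTCA, 13.6% held CAGACA and 16.4% held GGCGCC. In the windows of the 8 members, SMAD6 alone held the palindrome, SKIL alone held TGACGTCA, SMAD3 and SKIL held GGCGCC, and none held CAGACA. The RefSeq starts of ID2, SMAD3, SMAD7 and ID3 lay 3211, 1839, 1087 and 293 bases downstream of their GENCODE starts. For these genes the sequence before the GENCODE start was not searched, so its motifs are unknown here. A match is a description of the letters in this window and not a measured binding site.

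Library totals ran from 21788397 to 42921242 counts. Levels are CPM, the counts scaled to a common TMM-adjusted library size. Of the 8 members, 7 passed the filter on low counts, and a gene is called higher or lower when its adjusted p in edgeR's quasi-likelihood test over 14088 genes is below 0.05. ID4 had 0 reads in all 12 libraries, which allows up to 0.0699 to 0.138 CPM in a single library. Of 15 macrophage marker genes, 3 had 0 reads in all libraries (AIF1, C1QB and C1QC), SPI1 and TYROBP reached at most 0.0466 CPM, and their summed level was 1.24 to 1.53 CPM in Ctrl, 0.810 to 1.16 in M0, 0.735 to 1.04 in M1 and 0.787 to 1.21 in M2. Of the melanocyte markers, TYR and S100B had 0 reads throughout and SOX10 and MLANA at most 0.0358 CPM. MITF was detected and rose from 1.17 CPM in Ctrl to 3.10 in M0, 2.18 in M1 and 2.16 in M2. SOX9 fell from 56.7 CPM in Ctrl to 12.7 in M1, 15.4 in M2 and 20.9 in M0, and the melanoma-associated genes VIM (6168 to 10379 CPM) and AXL (1177 to 2888 CPM) were abundant.

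The 3 detected ID genes were lower in every macrophage medium than in fresh medium, and SMAD6 fell with them, whereas SMAD7 and SKIL were higher in every macrophage medium and highest in M1 medium. SMAD3 fell in M0 and M2 medium and was not called in M1 medium. In M0 against Ctrl, 2 of 7 tested members were called higher and 5 lower, where 31.1% of all genes were called higher and 30.6% lower. In M1 against Ctrl the counts were 2 higher and 4 lower, beside 35.2% and 35% of all genes. In M2 against Ctrl they were 2 higher and 5 lower, beside 34.1% and 32.4%. Changes of this kind were thus common in the transcriptome, and what the members show is their direction and size. In bulk RNA a smaller share of cells expressing a gene and less RNA per cell cannot be told apart.

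**Figure D1:**
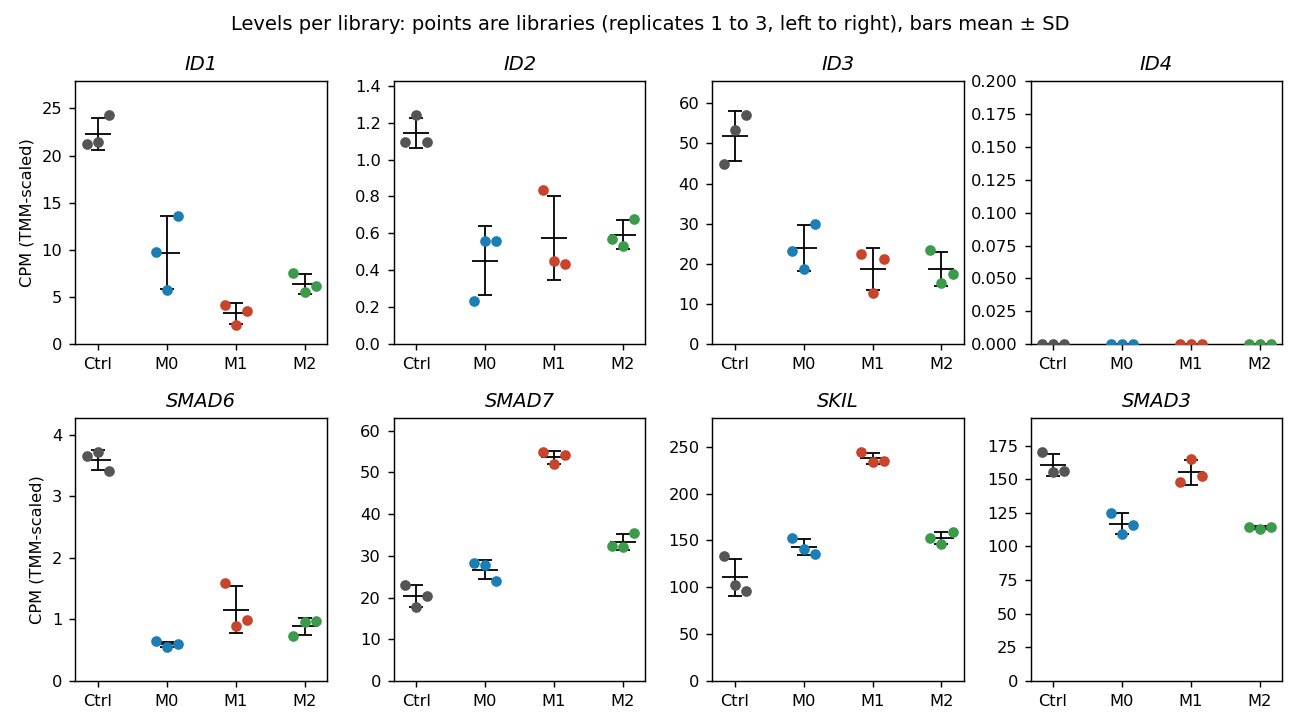
Level of each member in CPM (y axis, starting at 0) in the 12 libraries, grouped by medium on the x axis. Points are libraries with replicates 1 to 3 from left to right, and bars give the mean and SD. ID1, ID2, ID3 and SMAD6 are lower in all 9 macrophage-medium libraries than in any Ctrl library, SMAD7 and SKIL are highest in the 3 M1 libraries, and ID4 is at 0.

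ID1 (ENSG00000125968.8, chr20:31605283-31606515, plus strand, GRCh38 with GENCODE 29) had the widest range of the ID genes. Its level in replicates 1, 2 and 3 was 21.3, 21.4 and 24.3 CPM in Ctrl, 9.78, 5.77 and 13.6 CPM in M0, 4.21, 2.08 and 3.55 CPM in M1, and 7.54, 5.50 and 6.15 CPM in M2. All 9 macrophage-medium libraries lay below the lowest Ctrl library, the M1 libraries lay below all others, and M0 and M2 overlapped. ID1 fell 2.27-fold in M0 (log2 -1.18 ± 0.23 SE, edgeR adjusted p = 0.000387), 6.72-fold in M1 (log2 -2.75 ± 0.25 SE, edgeR adjusted p = 1.04e-07) and 3.47-fold in M2 (log2 -1.79 ± 0.24 SE, edgeR adjusted p = 7.37e-06). Among the macrophage media, ID1 was 2.96-fold lower in M1 than in M0 (log2 -1.57 ± 0.26 SE, edgeR adjusted p = 0.00015). It was 1.94-fold lower in M1 than in M2 (log2 -0.95 ± 0.27 SE, edgeR adjusted p = 0.0121), but without M1 replicate 2 that call was lost (log2 -0.72, adjusted p = 0.0556), and likewise without M2 replicate 1 (log2 -0.80, adjusted p = 0.0758). The difference of M2 from M0 was not called (log2 -0.61, 95% interval -1.14 to -0.09, edgeR adjusted p = 0.0813). Its p before adjustment was 0.0256, and leaving out M0 replicate 2 made it a call (log2 -0.86, adjusted p = 0.00853). It was also called by edgeR with the replicate number as a block (log2 -0.57, adjusted p = 0.045). The same held without the filter on low counts (log2 -0.62, edgeR adjusted p = 7.68e-05).

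ID3 (ENSG00000117318.8, chr1:23557918-23559794, minus strand) was the most abundant ID gene. It stood at 44.9, 53.4 and 57.0 CPM in Ctrl, 23.3, 18.6 and 29.9 CPM in M0, 22.5, 12.8 and 21.1 CPM in M1, and 23.6, 15.3 and 17.5 CPM in M2. The Ctrl libraries lay above all others, and the 3 macrophage media overlapped one another. ID3 fell 2.15-fold in M0 (log2 -1.11 ± 0.20 SE, edgeR adjusted p = 0.000196), 2.74-fold in M1 (log2 -1.45 ± 0.20 SE, edgeR adjusted p = 9.55e-06) and 2.74-fold in M2 (log2 -1.45 ± 0.20 SE, edgeR adjusted p = 1.22e-05). For ID3 no pair of macrophage media was called. The interval was -0.78 to 0.09 for M1 against M0, -0.79 to 0.09 for M2 against M0 and -0.44 to 0.44 for M1 against M2 (log2, edgeR adjusted p = 0.169, 0.229 and 0.997), and differences inside those intervals were not detectable.

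ID2 (ENSG00000115738.9, chr2:8678845-8684453, plus strand) was close to the detection limit, with 7 to 48 reads per library. Its level was 1.10, 1.24 and 1.09 CPM in Ctrl, 0.236, 0.559 and 0.561 CPM in M0, 0.837, 0.448 and 0.436 CPM in M1, and 0.570, 0.532 and 0.680 CPM in M2. Each macrophage-medium library was below each Ctrl library, and the 3 media overlapped. ID2 fell 2.56-fold in M0 (log2 -1.36 ± 0.32 SE, edgeR adjusted p = 0.00163), 1.95-fold in M1 (log2 -0.96 ± 0.28 SE, edgeR adjusted p = 0.00669) and 1.92-fold in M2 (log2 -0.94 ± 0.29 SE, edgeR adjusted p = 0.00985). No difference among the macrophage media was called (M1 against M0 log2 0.39, 95% interval -0.34 to 1.13). On the deposited variance-stabilized scale, which compresses low counts, the falls were smaller, at -0.86 in M0, -0.66 in M1 and -0.62 in M2, and were still called by limma. ID2 shares 38 exon bases with the antisense gene ID2-AS1, which had 8 reads in all 12 libraries.

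SMAD6 (ENSG00000137834.14, chr15:66702228-66782848, plus strand) changed against Ctrl in the direction of the ID genes and opposite to SMAD7, the other inhibitory SMAD, whereas in M1 against M0 it was higher, as SMAD7 was. It stood at 3.65, 3.72 and 3.41 CPM in Ctrl, 0.641, 0.559 and 0.596 CPM in M0, 1.60, 0.896 and 0.982 CPM in M1, and 0.732, 0.958 and 0.966 CPM in M2. The lowest Ctrl library was more than any macrophage-medium library, and the order of the means was Ctrl, M1, M2, M0. SMAD6 fell 5.94-fold in M0 (log2 -2.57 ± 0.23 SE, edgeR adjusted p = 1.24e-07), 3.06-fold in M1 (log2 -1.61 ± 0.19 SE, edgeR adjusted p = 2.21e-06) and 4.09-fold in M2 (log2 -2.03 ± 0.21 SE, edgeR adjusted p = 4.59e-07). It was 1.94-fold higher in M1 than in M0 (log2 0.96 ± 0.25 SE, edgeR adjusted p = 0.00543), a difference that leaned on M1 replicate 1 and was log2 0.65 without it (adjusted p = 0.0384). On the deposited log2 scale it was 0.59 (limma adjusted p = 0.0049). M2 against M0 (log2 0.54, 95% interval -0.04 to 1.12, edgeR adjusted p = 0.158) and M1 against M2 (log2 0.42, 95% interval -0.08 to 0.91, edgeR adjusted p = 0.184) were not called. The levels rest on 12 to 19 reads per library in M0, 27 in each M2 library, 28 to 63 in M1 and 109 to 160 in Ctrl. The M0 and M2 libraries did not overlap in SMAD6, although the difference was not called.

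SMAD7 (ENSG00000101665.8, chr18:48919853-48952052, minus strand) moved the other way. Its level was 23.0, 17.8 and 20.4 CPM in Ctrl, 28.3, 27.8 and 24.0 CPM in M0, 54.9, 51.9 and 54.1 CPM in M1, and 32.4, 32.1 and 35.6 CPM in M2. The 4 groups did not overlap, and they stood in the order Ctrl, M0, M2, M1. SMAD7 rose 1.31-fold in M0 (log2 0.38 ± 0.09 SE, edgeR adjusted p = 0.00247), 2.62-fold in M1 (log2 1.39 ± 0.09 SE, edgeR adjusted p = 2.79e-09) and 1.63-fold in M2 (log2 0.71 ± 0.09 SE, edgeR adjusted p = 7.3e-06). It was 2.01-fold higher in M1 than in M0 (log2 1.01 ± 0.09 SE, edgeR adjusted p = 5.33e-07) and 1.61-fold higher in M1 than in M2 (log2 0.69 ± 0.09 SE, edgeR adjusted p = 3.6e-05). The step from M0 to M2 was 1.25-fold (log2 0.32 ± 0.09 SE, edgeR adjusted p = 0.0213). It kept its direction but lost its call without M0 replicate 3 (log2 0.25, adjusted p = 0.109) and without M2 replicate 3 (log2 0.27, adjusted p = 0.1).

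SKIL (ENSG00000136603.13, chr3:170357678-170396835, plus strand) followed SMAD7. It was at 133, 102 and 96.4 CPM in Ctrl, 152, 141 and 135 CPM in M0, 244, 233 and 235 CPM in M1, and 152, 147 and 159 CPM in M2. Ctrl lay below and M1 above all other libraries, M0 and M2 overlapped, and Ctrl replicate 1 lay only just below the lowest M0 library. SKIL rose 1.29-fold in M0 (log2 0.37 ± 0.10 SE, edgeR adjusted p = 0.00345), 2.15-fold in M1 (log2 1.10 ± 0.10 SE, edgeR adjusted p = 5.42e-08) and 1.38-fold in M2 (log2 0.46 ± 0.10 SE, edgeR adjusted p = 0.000502). It was 1.66-fold higher in M1 than in M0 (log2 0.73 ± 0.10 SE, edgeR adjusted p = 1.56e-05) and 1.56-fold higher in M1 than in M2 (log2 0.64 ± 0.09 SE, edgeR adjusted p = 0.000109). M2 against M0 was not called (log2 0.09, 95% interval -0.11 to 0.30, edgeR adjusted p = 0.497).

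SMAD3 (ENSG00000166949.15, chr15:67063763-67195195, plus strand), the TGF-beta and activin effector, had a pattern of its own. Its level was 170.2, 155 and 156 CPM in Ctrl, 125, 109.5 and 116 CPM in M0, 148, 165 and 152 CPM in M1, and 115, 113 and 114 CPM in M2. M0 and M2 overlapped each other and lay below both Ctrl and M1, which also overlapped. SMAD3 fell 1.37-fold in M0 (log2 -0.46 ± 0.07 SE, edgeR adjusted p = 2.22e-05) and 1.41-fold in M2 (log2 -0.49 ± 0.07 SE, edgeR adjusted p = 7.75e-06). The difference between M1 and Ctrl was log2 -0.05 (95% interval -0.19 to 0.09, edgeR adjusted p = 0.502). SMAD3 was 1.33-fold higher in M1 than in M0 (log2 0.41 ± 0.07 SE, edgeR adjusted p = 0.00012) and 1.36-fold higher in M1 than in M2 (log2 0.44 ± 0.07 SE, edgeR adjusted p = 0.000111). M2 against M0 gave log2 -0.04 (95% interval -0.18 to 0.10). SMAD3 shares 182 exon bases with the antisense gene AC087482.1, which had 25 reads in all libraries.

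**Figure D2:**
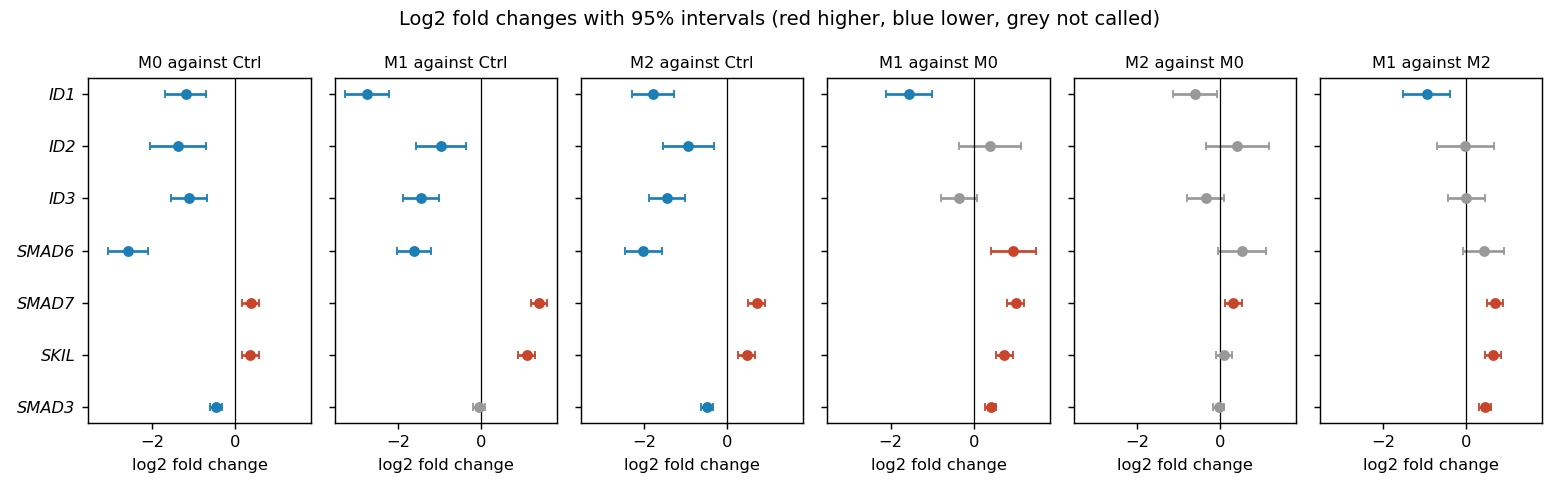
Log2 fold change (x axis) of the 7 tested members in the 6 comparisons, with points for the edgeR estimate and bars for its 95% interval, red where called higher, blue where called lower and grey where not called. SMAD7 and SKIL lie to the right of 0 and ID1, ID2, ID3 and SMAD6 to the left in each comparison with Ctrl, and M2 against M0 has 1 call, SMAD7.

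The comparisons among the macrophage media, which the design names as its main question, separated the members further. In M1 against M0, 4 of 7 members were called higher (SMAD3, SMAD6, SMAD7 and SKIL) and 1 lower (ID1), beside 25.5% and 26.7% of all genes. In M1 against M2, 3 were called higher (SMAD3, SMAD7 and SKIL) and 1 lower (ID1), beside 15.9% and 16.6%. In M2 against M0, 1 was called higher (SMAD7) and 0 lower, beside 12.5% and 12.7%. For that 0, ID1 had an unadjusted p of 0.0256 and was the 1 member lower at that level, and DESeq2 and limma also called 0 members lower. Without M0 replicate 2, or with the replicate number as a block, 1 member was called lower (ID1). Without the filter on low counts 2 were (ID1 and ID3, edgeR adjusted p = 7.68e-05 and 0.00568). The number of genes called in M2 against M0 depended on single libraries: 1765 were higher and 1788 lower with all 12, against 850 and 745 without M0 replicate 3 and 1020 and 913 without M2 replicate 2.

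Per kilobase of merged exon (RPKM, computed here from CPM and the annotated length), the order of the members was rearranged by the media. In Ctrl, ID3 was highest at 28.8 ± 3.46 RPKM (SD, n = 3), followed by ID1 at 18.1 ± 1.37, SMAD3 at 17.6 ± 0.919 and SKIL at 14.2 ± 2.53. ID1 and SMAD3 overlapped in Ctrl, as did SMAD3 and SKIL. SMAD7 followed at 4.05 ± 0.522 RPKM, and ID2 at 0.518 ± 0.0377 and SMAD6 at 0.420 ± 0.0191 did not overlap each other. In M1, SKIL was highest at 30.5 RPKM, SMAD3 stood at 17.0 and SMAD7 at 10.7, level with ID3 at 10.5, whose libraries ranged from 7.14 to 12.5. ID1 had dropped to 2.66 RPKM in M1, below SMAD7 in all 3 libraries. SKIL also led in M0 (18.4 RPKM) and M2 (19.6 RPKM). SMAD6 was the lowest detected member in every medium, at 0.0699 RPKM in M0, 0.135 in M1 and 0.103 in M2, and in none of the 4 media did its libraries overlap those of ID2.

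**Figure D3:**
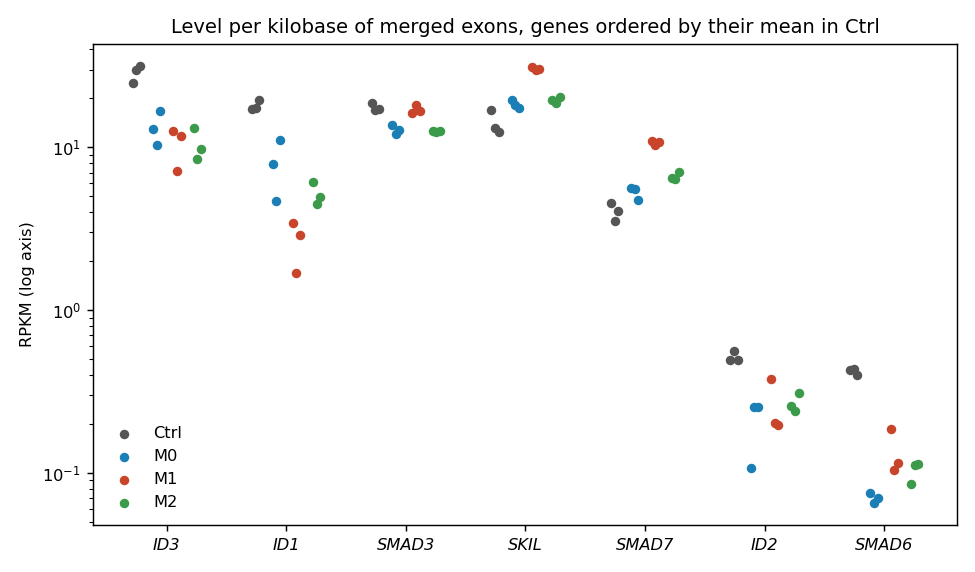
Level per kilobase of merged exon (RPKM, log axis) of the 7 detected members, ordered along the x axis by their mean in Ctrl, with 1 point per library coloured by medium. ID3 leads in Ctrl at 28.8 RPKM and SKIL in M1 at 30.5 RPKM, and ID2 and SMAD6 lie below 0.6 RPKM in all libraries.

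Replicates of the same medium also differed in a way that tied some members together. ID1 and ID3 deviated from their group means in parallel, with Pearson's r = 0.926 between their deviations over 12 libraries, and replicate 2 was the lowest for both genes in M0, M1 and M2. SMAD7 and SKIL deviations had r = 0.749, with Ctrl replicate 1 high in both. Across all 12 libraries ID1 and SMAD7 had r = -0.919 and ID1 and SKIL r = -0.888, but their deviations within groups had r = -0.185 and -0.048. The ID2 and SMAD3 deviations had r = -0.708, but ID2 had only 7 to 48 reads per library. Its largest deviation, -0.71 in M0 replicate 1, rests on 7 reads. These values are descriptions over points that share 4 groups and their library depth. The ID1 deviation went with log2 total counts at r = 0.622 and with the S-phase transcription factor E2F1 at r = 0.902, and that of ID3 at r = 0.475 and 0.916, with replicate 2 the shallowest library in M0 and M1. The other genes compared in this way went less closely. The cyclin gene CCNA2 had r = 0.427 with ID1 and 0.323 with ID3, and MYC had 0.479 and 0.609. The part of depth or of cycling cells in the ID levels was not tested.

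**Figure D4:**
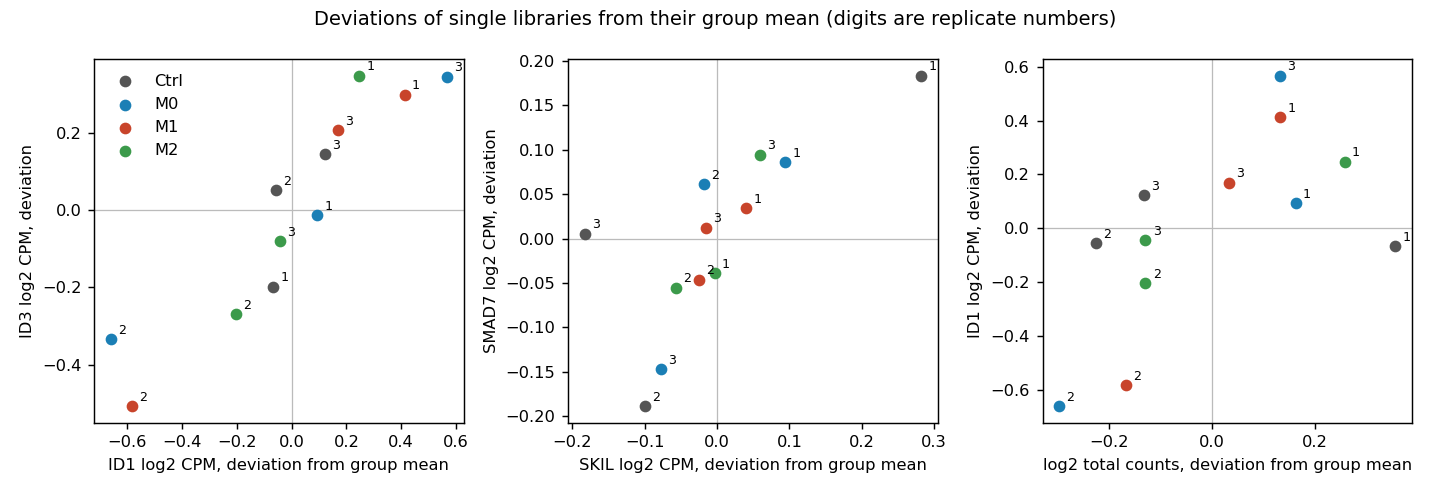
Deviation of each library from the mean of its group on the log2 scale, with colours for media and digits for replicate numbers: ID3 against ID1 (left), SMAD7 against SKIL (middle) and ID1 against total counts (right). ID1 and ID3 lie along a rising line (r = 0.926), and replicate 2 of M0 and M1 is at its lower end.

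The genes whose log2 CPM was most like each member over the 12 libraries were taken from 10907 protein-coding genes. ID1 was most like POLD1, the catalytic subunit of DNA polymerase delta (r = 0.994), which averaged 72.3 CPM in Ctrl, 27.8 in M0, 9.29 in M1 and 16.0 in M2. SNRNP70 (r = 0.993) and the centromere protein gene CENPT (r = 0.992) came next. ID3 was most like BPNT1 (r = 0.983), AGPAT1 and PRMT2 (both r = 0.976), and ID2 most like TMEM185A (r = 0.907), C14orf93 (r = 0.898) and MAP3K6 (r = 0.897). SMAD6 had SFXN3 (r = 0.981), HERC4 (r = 0.981) and C15orf52 (r = 0.979). SMAD7 had the histone gene HIST2H2BE (r = 0.994), at 1.61 CPM in Ctrl, 3.01 in M0, 12.2 in M1 and 5.05 in M2, then SH3PXD2B and SYVN1 (both r = 0.986). SKIL had PDP1 (r = 0.985), PAPPA (r = 0.982) and the cytokine receptor subunit IL6ST (r = 0.982), which was at 244 CPM in Ctrl, 424 in M0, 838 in M1 and 422 in M2. SMAD3 had CHST11 (r = 0.975), SLC10A7 (r = 0.974) and CMTM6 (r = 0.971), and CHST11 was likewise lower in M0 (23.1 CPM) and M2 (23.9) than in Ctrl (49.0) and M1 (52.3).

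Ligands of the pathway were called in both directions. Of all genes tested against Ctrl, 31.1% were called higher and 30.6% lower in M0, and 35.2% and 35% in M1. In M2 the shares were 34.1% and 32.4%, and the list counts stand beside these. Of 13 BMP and GDF ligands 4 passed the filter. In M0 and in M2 against Ctrl 2 rose, 1 fell and 1 was not called, and in M1 against Ctrl 2 rose and 2 fell, 1 of them lost without Ctrl replicate 1, Ctrl replicate 2 or M1 replicate 1. BMP2 rose from 8.44 ± 1.37 to 44.8 ± 10.5 CPM in M0 (log2 2.40, edgeR adjusted p = 3.22e-09), to 37.0 ± 4.84 in M1 and to 25.4 ± 0.234 in M2, above every Ctrl library in each medium. BMP6 rose from 0.0988 ± 0.033 to 1.79 ± 0.309 CPM in M0 (log2 4.18, edgeR adjusted p = 5.7e-08; 2.15 on the deposited log2 scale), and GDF11 fell from 23.3 ± 0.575 to 10.7 ± 0.425 CPM (log2 -1.13, edgeR adjusted p = 4.34e-08), and also in M1 and M2 (log2 -1.30 and -0.76). BMP6 was 2.97-fold lower in M1 than in M0, and BMP2 1.77-fold lower in M2 than in M0 (edgeR adjusted p = 9.73e-05 and 0.00158). The BMP target ID1 and the ligand BMP2 moved in opposite directions in all 3 media, at the RNA level. Whether their changes are linked was not tested.

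Of 11 TGF-beta and activin ligands 6 passed the filter, with 3 higher and 1 lower in each medium against Ctrl (2 lower in M0 without M0 replicate 2). INHBE, which encodes the activin beta E subunit, rose from 0.126 ± 0.0531 CPM in Ctrl to 49.9 ± 9.22 in M0, 99.7 ± 11.5 in M1 and 104 ± 5.8 in M2 (log2 8.62, 9.62 and 9.67). GDF15 rose from 0.0152 ± 0.0264 CPM to 5.56 ± 1.51, 5.35 ± 1.61 and 8.33 ± 0.737 (log2 7.92, 7.89 and 8.52). For scale, 7 of 7 ATF4 and stress genes were called higher in each medium, beside 31.1%, 35.2% and 34.1% of all genes. Their median log2 changes were 5.12, 4.16 and 4.77. Whether the INHBE and GDF15 rises belong with theirs was not tested. INHBA, the activin A subunit, rose in M1, to 346 ± 5.32 CPM from 47.8 ± 9.76 in Ctrl (log2 2.85, edgeR adjusted p = 3.46e-11) and 50.8 ± 6.93 in M0 (log2 2.76, edgeR adjusted p = 2.39e-10). In M2 its mean was also above that of Ctrl, at 64.5 ± 7.56 CPM, and it was 5.35-fold higher in M1 than in M2 (edgeR adjusted p = 9.19e-10). The M1 libraries, in which INHBA was highest, were also those in which SMAD7 and SKIL were highest. Whether INHBA and these genes are linked was not tested. TGFB3 fell in M0 from 4.90 ± 0.123 to 0.998 ± 0.358 CPM (log2 -2.30, edgeR adjusted p = 3.05e-07), and also in M1 and M2 (log2 -1.98 and -1.59).

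Among receptors and co-receptors, 13 of 16 passed the filter. In M0 against Ctrl 2 rose and 5 fell, beside 31.1% and 30.6% of all genes. In M1 3 rose and 3 fell (35.2% and 35%), and in M2 1 rose and 6 fell (34.1% and 32.4%). The rises were less settled than the falls: without Ctrl replicate 1 they numbered 4, 5 and 3, and without Ctrl replicate 2 or 3 only 1 rise was called in M0. The type II BMP receptor BMPR2 stood at 196 ± 36.9 CPM in Ctrl, 119 ± 6.69 in M0, 188 ± 6.99 in M1 and 134 ± 3.43 in M2. It was lower in M0 than in Ctrl (log2 -0.71, edgeR adjusted p = 1.56e-05) and higher in M1 than in M0 (log2 0.65, edgeR adjusted p = 6.66e-05), so that M0 and M2 lay below Ctrl and M1, as for SMAD3. The activin receptor ACVR2B rose 2.59-fold in M0, 3.79-fold in M1 and 3.17-fold in M2, and the co-receptor TGFBR3 fell 2.21-fold, 2.56-fold and 1.96-fold. Of the 5 SMAD genes outside the members, SMAD9 had 0 reads in every library. SMAD1 rose from 16.1 ± 1.5 to 23.1 ± 1.37 CPM in M0 (log2 0.51), and SMAD5 fell from 145 ± 10.2 to 107 ± 4.77 CPM (log2 -0.44). SMAD2 rose from 157 ± 4.96 to 194 ± 3.36 CPM (log2 0.30), and these 3 had the same calls in M1 and M2, whereas SMAD4 was called in none of them. The shares of all genes beside these calls against Ctrl are those given for the receptors. Among the macrophage media 0 of the 4 tested were called by edgeR, with 0 unadjusted p-values below 0.05, and 0 by DESeq2 and limma. Of all genes, 25.5% were called higher and 26.7% lower in M1 against M0. The shares were 12.5% and 12.7% in M2 against M0, and 15.9% and 16.6% in M1 against M2. Without M1 replicate 2, 1 of the 4 SMAD genes was lower in M1 than in M0. In M2 against M0, 1 was lower in the 6-library fit and without Ctrl replicate 1.

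Inhibitors outside the cell lost CHRDL1, a chordin-like BMP antagonist, which went from 87.9 ± 8.92 CPM in Ctrl to 26.8 ± 10.1 in M0, 7.48 ± 1.08 in M1 and 17.1 ± 1.8 in M2. Of 12 antagonists tested, 2 rose and 6 fell in M0 against Ctrl, beside 31.1% and 30.6% of all genes. In M1 5 rose and 5 fell (35.2% and 35%), and in M2 3 rose and 4 fell (34.1% and 32.4%). With M0 replicate 1 left out, 1 rise was called in M0. BMPER was higher in M1 than in M0 (3.16 ± 0.351 to 10.3 ± 1.18 CPM, log2 1.71, edgeR adjusted p = 4.25e-08). Of 12 intracellular inhibitors tested, 4 rose and 5 fell in M0, 7 rose and 2 fell in M1, and 5 rose and 4 fell in M2. The shares of all genes beside these counts are those given for the antagonists. In M1 1 of the 2 falls was lost without M1 replicate 1, M1 replicate 3, M2 replicate 2 or M2 replicate 3. In M1 against M0 the count was 8 higher and 1 lower, beside 25.5% and 26.7% of all genes, and 0 lower without M0 replicate 3. PMEPA1, which sequesters receptor-activated SMADs and is a TGF-beta target, stood at 2.97 ± 0.186 CPM in Ctrl, 1.87 ± 0.65 in M0, 9.15 ± 0.0654 in M1 and 4.67 ± 0.885 in M2. It was called in all 6 comparisons, 4.93-fold higher in M1 than in M0 and, like SMAD7, 2.5-fold higher in M2 than in M0 (edgeR adjusted p = 2.81e-07 and 0.00103). The ubiquitin ligase SMURF2, which acts with SMAD7 on receptors, fell from 191 ± 9.9 CPM in Ctrl to 111 ± 11.9 in M0 and 119 ± 2.3 in M2, and was at 169 ± 6.89 in M1. The co-repressor TGIF1 rose 3.70-fold in M0, 3.09-fold in M1 and 3.09-fold in M2.

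TGF-beta target genes were called in both directions. Of 17 genes tested, 8 rose and 4 fell in M0 against Ctrl (median log2 0.36, against 0.00 for all genes, of which 31.1% were called higher and 30.6% lower), 11 rose and 2 fell in M1 (median 0.97; 35.2% and 35% of all genes), and 10 rose and 3 fell in M2 (median 0.51; 34.1% and 32.4%). In M1 against M0, 11 were higher and 2 lower, with a median of log2 0.61, beside 25.5% and 26.7% of all genes. CTGF rose from 100.1 ± 14.8 CPM in Ctrl to 644 ± 92 in M0 (log2 2.68), 462 ± 25.2 in M1 and 716 ± 25.5 in M2. The cell cycle inhibitor CDKN1A rose from 3.40 ± 0.463 CPM to 17.8 ± 7.52 in M0, 75.5 ± 2.89 in M1 and 24.0 ± 0.718 in M2. CTGF had its lowest mean of the macrophage media in M1. JUNB rose from 6.80 ± 0.217 CPM in Ctrl to 38.2 ± 9.99 in M1 and 25.2 ± 1.87 in M2 (log2 2.49 and 1.89). THBS1 fell 2.58-fold in M0 and was 2.83-fold higher in M1 than in M0. Whether any of these targets is linked to SMAD7 or SKIL was not tested.

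BMP targets other than the members were called in both directions against Ctrl. Of 10 tested, 2 rose and 6 fell in M0 against Ctrl (median log2 -0.50), beside 31.1% and 30.6% of all genes. In M1 4 rose and 3 fell (median 0.09), beside 35.2% and 35%. In M2 4 rose and 4 fell (median 0.05, and 2 falls without Ctrl replicate 3), beside 34.1% and 32.4%. ATOH8 went with the ID genes, at 5.68 ± 0.714 CPM in Ctrl, 1.42 ± 0.259 in M0, 1.00 ± 0.0828 in M1 and 1.58 ± 0.203 in M2 (log2 -1.99, -2.50 and -1.83). HEY1, which Notch also induces, rose from 1.26 ± 0.245 to 8.65 ± 0.458, 11.5 ± 0.238 and 10.0 ± 1.11 CPM. GATA3 rose too, from 3.81 ± 0.266 to 8.41 ± 1.7, 7.93 ± 0.771 and 7.75 ± 0.659 CPM (log2 1.13, 1.06 and 1.02). Noggin (NOG), the BMP antagonist that BMP itself induces, fell from 0.729 CPM to 0.364 in M0, 0.306 in M1 and 0.418 in M2 (log2 -0.98, -1.26 and -0.78), and was named after its values were seen. In M1 against M0, 4 of the 10 were higher and 1 lower, beside 25.5% and 26.7% of all genes. The fall was not called by DESeq2 or limma. DLX2, DLX1 and MSX1 were 2.36-fold, 1.72-fold and 1.52-fold higher in M1 than in M0, whereas ID1 was lower. In M2 against M0, 4 were higher and 0 lower, beside 12.5% and 12.7%, among them RUNX2, DLX2 and DLX1. Only 2 were higher without M0 replicate 1, M0 replicate 3 or M2 replicate 3.

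**Figure D5:**
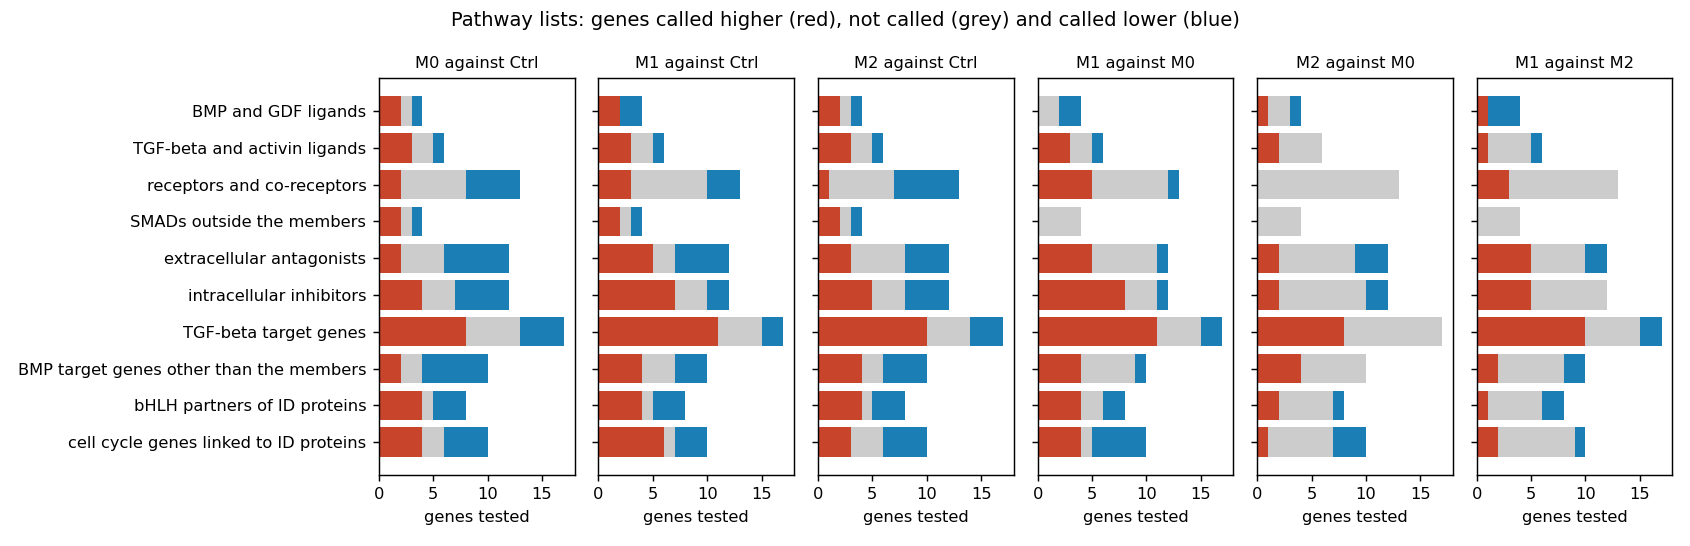
Number of genes (x axis) in each pathway list that were called higher (red), not called (grey) or called lower (blue) in the 6 comparisons, each list on its own line. TGF-beta target genes have 11 of 17 higher in M1 against M0, while BMP target genes other than the members have 6 of 10 lower in M0 against Ctrl and 4 of 10 higher in M1 against M0 and in M2 against M0. Of all genes, 30.6% were lower in M0 against Ctrl, 25.5% higher in M1 against M0 and 12.5% higher in M2 against M0.

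Basic helix-loop-helix genes, the class that holds the E protein partners of ID proteins, changed as well. Beside E protein genes the list held HEY1, HES1 and MYC, which rose in each medium against Ctrl. Of 8 basic helix-loop-helix genes tested, 4 rose and 3 fell in each medium against Ctrl, although in M2 only 1 fall was called without Ctrl replicate 2, Ctrl replicate 3 or M2 replicate 3. The E protein genes, named after their values were seen, split: TCF4 fell from 71.7 CPM in Ctrl to 29.5 in M0, 48.4 in M1 and 26.6 in M2, TCF3 from 152 CPM to 115, 96.5 and 130.3, and TCF12 rose from 124 CPM to 156, 186 and 182. TCF4 was 1.64-fold higher in M1 than in M0 (edgeR adjusted p = 1.23e-05), so ID1 and TCF4 moved in opposite directions between those media. MYC rose from 70.9 ± 1.16 CPM in Ctrl to 265 ± 6.46 in M0, 166 ± 9.65 in M1 and 224 ± 12.9 in M2. Of 10 cell cycle genes linked to ID proteins, 4 rose and 4 fell in M0, 6 rose and 3 fell in M1, and 3 rose and 4 fell in M2. The shares of all genes beside these counts are those given above. CDKN2C fell from 93.8 ± 6.24 CPM to 11.6 ± 3 in M0, 5.02 ± 0.497 in M1 and 6.68 ± 0.813 in M2. E2F1 had the order of ID1, with 73.0 to 88.6 CPM in the Ctrl libraries, 52.3 to 70.5 in M0, 37.6 to 42.4 in M2 and 22.0 to 30.2 in M1. The share of cycling cells was not measured, and its part in the ID1 result was not tested.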

How the data were processed

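Per the labels' protocols, 12 stranded mRNA libraries of MV3 cells gave single 50 nt reads in 2 sequencing runs, which the files hold together. The submitters' processing notes name STAR 2.5.4b, Bowtie2 2.2.3, DESeq2 1.20.0, Trimmomatic 0.36 and build hg38. How reads were counted, with which strand option and annotation, is not given in the sources used here. Raw read counts for 58288 identifiers were deposited by the authors, and the per-sample count files equalled the table's columns in 12 of 12 cases. The authors also deposited a variance-stabilized table of log2-scale values, in which a count of 0 has the value 3.22, and these log2 values served only in an alternative test. Identifiers were matched to GENCODE 29 (55661 with their version, 58025 without; SMAD7 by the latter). With an unknown strand setting, reads of overlapping antisense genes cannot be told apart.

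The count test was that of edgeR 4.0.16, run under R 4.3.3 (TMM, filterByExpr with minimum count 10 and minimum total 15, quasi-likelihood F test on all 12 libraries with group means only, Benjamini-Hochberg adjustment over 14088 genes at 0.05). The common biological coefficient of variation was 0.0831. SE is the absolute log2 fold change divided by the root of F, and intervals are 95%. Correlations used log2 CPM with a prior count of 2, and the merged exon length gave RPKM. Detection floors of 3 counts cover counting error only, as reads and not molecules were counted. Chi-square per degree of freedom between replicates was 3.10 to 28.0, above sampling noise, so no library was taken for a repeat deposit. The code was tested on simulated counts.

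Alternatives were no count filter, RLE scaling, DESeq2 1.42.0, limma 3.58.1 on the deposited log2 values, only the 6 libraries compared, a replicate block, a prior count of 0.5 and each library left out. Leaving out M0 replicate 3 and M2 replicate 2 together, and applying the alternatives to the pathway lists, were chosen after seeing the data. The members and lists were chosen with earlier results of these data known. Named list genes come mostly from the up to 3 most changed called members per list and comparison whose higher group reaches 1 CPM. Not all genes that meet this rule are named, and NOG and the E protein genes were named after their values were seen. Like genes are the 3 protein-coding genes with the highest Pearson's r and a mean of at least 1 CPM.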

Additional observations from a re-analysis of the deposited data

How the results depend on the processing

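Each fall of ID1, ID2, ID3 and SMAD6 and each rise of SMAD7 and SKIL against Ctrl kept its direction and its call under every alternative run, with ID1 in M1 at log2 -2.96 to -2.51, SMAD6 in M0 at -2.64 to -1.91 and SMAD7 in M1 at 1.30 to 1.49. RLE scaling, DESeq2, limma and the 6-library fits changed no member call. Of the member fold changes over all alternatives, 777 kept direction and side of the threshold, 11 reversed, 5 gained a call and 5 lost one. Without the count filter, 2 members were lower in M1 against M0 (ID3 joined at -0.32) and 2 in M2 against M0 (ID1 at -0.62, ID3 at -0.36). For M2 against M0, leaving out single libraries gave 0 to 1 member higher, 0 to 1 lower, 850 to 2117 genes higher and 745 to 2093 lower, with the lowest counts without M0 replicate 3. With M0 replicate 3 and M2 replicate 2 both left out, the calls were 0 members (SMAD7 at 0.28, adjusted p = 0.165), 303 genes higher and 217 genes lower. For M1 against M2 the leave-one-out ranges were 0 to 1 member lower and 1528 to 2447 genes lower. The cause of these shifts was not tested.

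Values near 0 reversed. With single libraries left out, SMAD3 in M2 against M0 ranged from -0.082 to 0.020, above 0 when M0 replicate 1 was missing. In M1 against M2, ID2 ranged from -0.41 to 0.16, above 0 when M1 replicate 2 (0.13), M1 replicate 3 or M2 replicate 3 (0.07) was missing, and was 0.0078 without the filter. ID3 in that comparison ranged from -0.14 to 0.22, below 0 when M1 replicate 1, M1 replicate 3 (-0.08), M2 replicate 2 (-0.13) or M2 replicate 3 (-0.05) was missing, and was -0.11 with M0 replicate 3 and M2 replicate 2 both left out. SMAD6 in M0 had a log2 CPM of -0.71 with a prior count of 0.5.

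The labels give no shared source for same-numbered libraries, and the numbers were not taken as pairs: of 18 correlations between their deviations, -0.08 to 0.15, 6 were above 0.1. In 12 of 18 cases the correlation was highest with the library's own number, a hint of shared deviation from the data and not the design. With the replicate number as a block, 1 member was called lower in M2 against M0 (ID1 at -0.57, adjusted p = 0.045), ID3 in M1 against M2 was -0.015, and no other member call changed. Depth limits ID2 and SMAD6 most, with as few as 7 and 12 reads in a library.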
